A study of Mus musculus with 35 samples.

Results

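Primary microglia sorted from the cerebellum were compared with primary microglia sorted from the forebrain of mice that lack neural Csf1, at postnatal day 8 (P8). These libraries make up 6 of the 35 RNA sequencing libraries of the series, 3 from each region, and were taken by their sample titles. Both groups carry the genotype NesCreCsf1fl/fl (called NesCre here), in which both Csf1 alleles are floxed and Cre recombinase is driven by Nestin regulatory sequences, active in the neural lineage and so in the precursors of neurons, astrocytes and oligodendrocytes. The groups are NesCre cerebellum at P8 (3 libraries) and NesCre forebrain at P8 (3 libraries). Set beside them are Csf1fl/fl mice without Cre (called controls) at P8, with 3 cerebellum and 3 forebrain libraries, and NesCre mice at 9 weeks, with 3 cerebellum and 4 forebrain libraries. The labels do not give the sex of the animals, how many were pooled in a library, or whether the 2 regions of a number came from 1 animal. Samples of a group are given as biological replicates in the design text, without saying what was repeated.

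Microglia, the resident macrophages inside the brain tissue, need signalling through the receptor CSF1R to survive and divide. CSF1R has a pair of ligands, CSF1 and IL-34, which different cells make in different parts of the brain. Around the first postnatal week microglia divide, take up dying cells and debris, and in part express an activation program that is known from developing white matter. Other macrophages sit at the borders of the brain, in the meninges, the perivascular space and the choroid plexus, and share many surface markers with microglia, so that a sort for microglia can carry them.

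The NesCre cerebellum libraries held 507917 to 1259164 reads in the genes of their table, and the NesCre forebrain libraries 503424 to 1049734. The 2 regions were deposited in separate tables, and 8400 genes stand in both. These were normalized together, and levels are given as CPM, the reads of a gene scaled to the library's total and its TMM factor. Within groups, log2 CPM correlated across the genes with Pearson's r of 0.894 to 0.946, as a description. Csf1 itself does not check the deletion, since the Cre acts in other cells than those sorted. It had 63.7, 57.1 and 25.3 CPM in NesCre cerebellum and 31.3, 50.5 and 17.1 CPM in NesCre forebrain (log2 difference 0.60 ± 0.36 SE, adjusted p = 0.659). Its receptor Csf1r had 10976 to 11616 CPM in NesCre cerebellum and 8827 to 12023 CPM in NesCre forebrain (log2 difference 0.12 ± 0.12 SE, adjusted p = 0.864). Il34 is in neither table. Reads of the Y-linked gene Ddx3y were present throughout, at 74.1 to 109 CPM in NesCre cerebellum and 75.8 to 158 CPM in NesCre forebrain. The sex-linked gene Xist stands in the forebrain table alone and was not compared, so a match in sex between the regions was not tested. Of the markers that define microglia, Tmem119 had 929 to 1043 CPM in NesCre cerebellum and 960.4 to 1789 CPM in NesCre forebrain.

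Without neural Csf1, cerebellar microglia differed from forebrain microglia in 18 of the 8400 genes (0.214% of genes tested, edgeR's quasi-likelihood test). Of these, 16 were higher in the cerebellum (0.19%) and 2 were lower (0.0238%). The higher genes reported here are 4 genes of antigen presentation on MHC class II (H2-Eb1, H2-Aa, H2-Ab1, Cd74), genes known from border macrophages and other tissue macrophages (F13a1, Pf4, Cd163, Mgl2, Lyz2, Cfp), genes of lipid handling (Cd36, Pla2g7), and Mbp, Il18rap and Gas7. The lower genes are Ccnb1 and Kpna2, both known from dividing cells. In all 18 the 3 cerebellum libraries lay wholly on one side of the 3 forebrain libraries. Genes without such overlap made up 6.44% of all genes in the higher direction and 6.19% in the lower direction.

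The split into higher and lower calls is not symmetric by construction. Every gene of the cerebellum table exceeds a deposited value of 10 in all libraries of a cerebellum group, while 308 of the 8400 genes exceed it in no forebrain group. A gene low in both cerebellum groups and high in the forebrain thus could not enter. Of the 18 called genes, 5 are among the 308 (H2-Eb1, H2-Aa, H2-Ab1, Il18rap and Mgl2). The first 4 of these exceed it in NesCre cerebellum alone, and Mgl2 in both cerebellum groups. All 5 thus entered through groups in which they were high, and their differences are a description rather than support for a direction. With the test repeated on the 8092 genes that exceed it in both regions, an alternative chosen after seeing the data, 12 genes were called, 11 higher and 1 lower, all among the 18. Kpna2 then missed the threshold (adjusted p = 0.0573).

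These calls rest on few libraries. Without NesCre cerebellum replicate 2 no gene was called by edgeR (570 had an unadjusted p under 0.05), and the 18 had adjusted p-values of 0.0721 to 0.429. Without NesCre forebrain replicate 2 there were 3 calls, 2 of them among the 18 (Cfp and Lyz2), and without NesCre forebrain replicate 3 there were 11. Every one of the 18 kept its direction in each of the 12 refits that left out 1 of the P8 libraries. Since their 3 cerebellum and 3 forebrain libraries did not overlap, this outcome was all but fixed beforehand and adds no support. Cfp and Lyz2 lost their call only without NesCre cerebellum replicate 2 (adjusted p = 0.0721 for each).

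**Figure D1:**
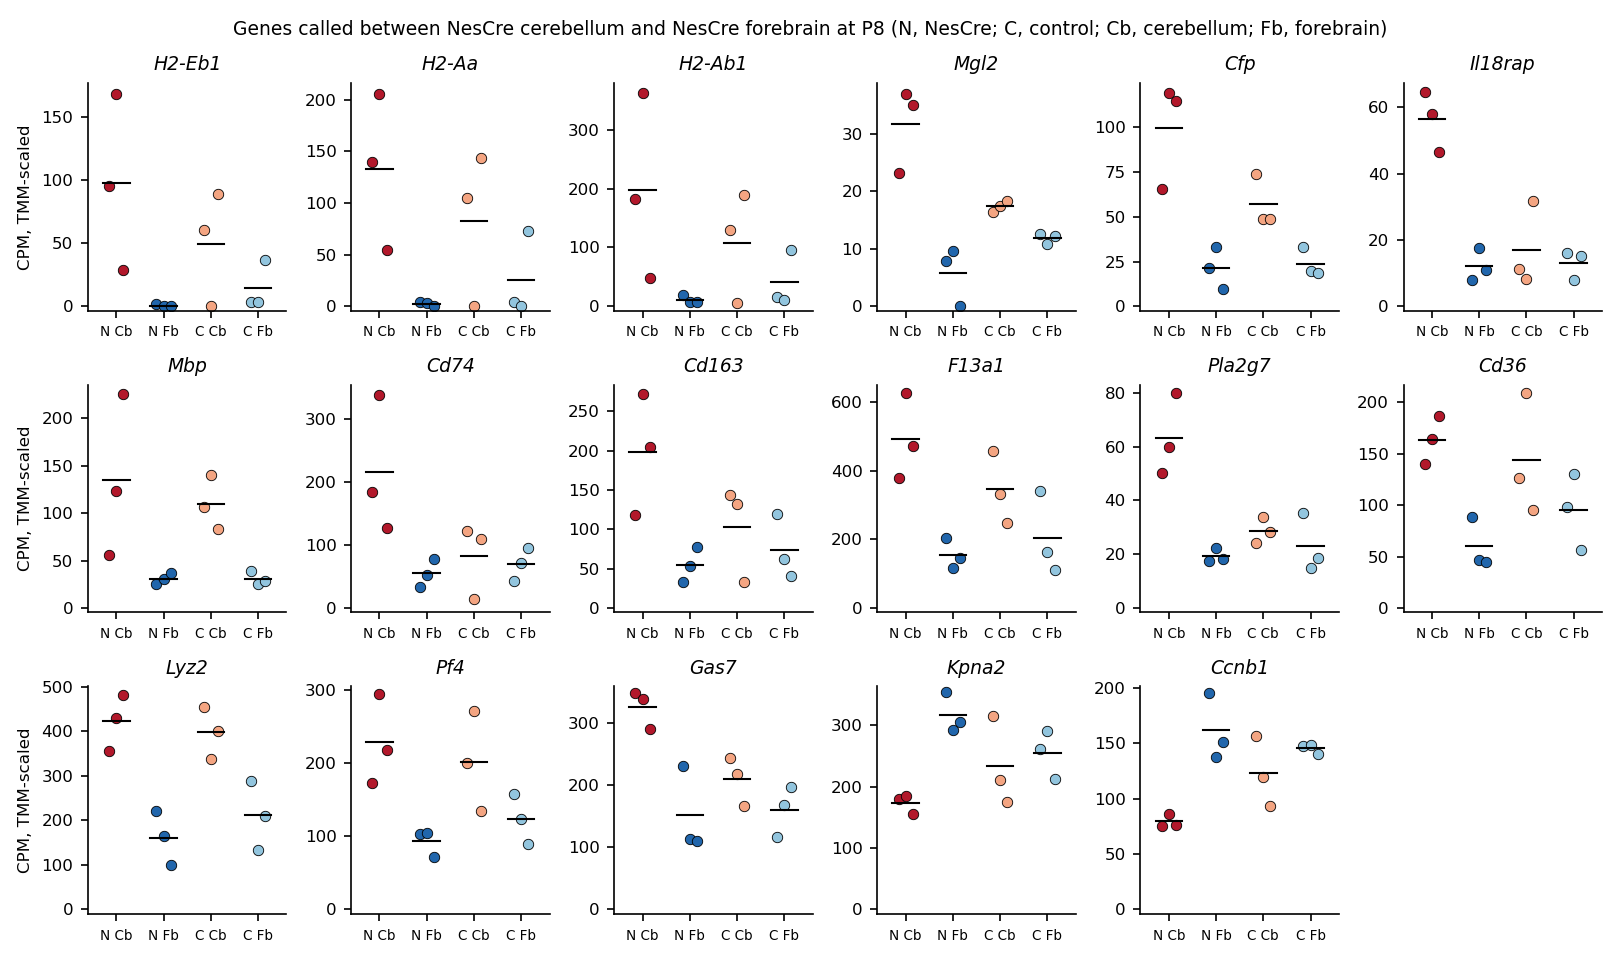
CPM of 17 of the 18 called genes (y axes, linear, from 0) in the 12 libraries of P8, with a bar at the group mean, in NesCre cerebellum, NesCre forebrain, control cerebellum and control forebrain from left to right. The NesCre cerebellum points lie above the NesCre forebrain points for 15 genes and below them for Kpna2 and Ccnb1.

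Of the genes that could enter and were called, the MHC class II genes H2-Eb1, H2-Aa and H2-Ab1 had the largest fitted differences. That of Cd74 was smaller than those of Mgl2, Cfp, Il18rap and Mbp. H2-Aa and H2-Ab1 encode the alpha and beta chains of the I-A molecule, H2-Eb1 the beta chain of the I-E molecule, and Cd74 the invariant chain that escorts class II molecules to the endosome. H2-Eb1 (chr17:34305867-34316674, mm10) had 95.6, 169 and 29.2 CPM in NesCre cerebellum, and 1.96, 0 and 0 CPM in NesCre forebrain. That forebrain level is 1 read over 3 libraries, against 336 reads over the 3 cerebellum libraries, a ratio per depth of 268 with a 95% exact interval of 47.8 to 10619 that covers counting error only. H2-Eb1 was called (log2 difference 7.50 ± 1.28 SE, adjusted p = 0.00637), and the size of this fitted difference depends on how the fit treats counts near 0. H2-Aa (chr17:34282744-34287823) had 139, 206 and 54.5 CPM in NesCre cerebellum and 3.91, 2.91 and 0 CPM in NesCre forebrain (log2 difference 5.93 ± 1.18 SE, adjusted p = 0.0211). H2-Ab1 (chr17:34257689-34269419) had 182, 361 and 48.7 CPM in NesCre cerebellum, and 19.6, 6.80 and 7.31 CPM in NesCre forebrain. Its log2 difference was 4.33 ± 0.82 (SE, adjusted p = 0.0191). Cd74 (chr18:60803848-60812652) had 183, 338 and 127 CPM in NesCre cerebellum and 33.3, 52.5 and 78.0 CPM in NesCre forebrain (log2 difference 1.97 ± 0.42 SE, adjusted p = 0.041). NesCre cerebellum replicate 2 was the highest and replicate 3 the lowest cerebellum library for all 4 genes.

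In the controls the same 4 genes were spread widely within each region, and the regions overlapped. H2-Aa had 105, 0 and 143 CPM in control cerebellum and 4.57, 0 and 72.7 CPM in control forebrain (log2 difference 1.67 ± 0.78 SE, adjusted p = 0.771). H2-Ab1 had 130.3, 5.84 and 188 CPM in control cerebellum, and 16.0, 11.8 and 95.2 CPM in control forebrain. Control cerebellum replicate 2 thus stood with the low forebrain libraries. None of the 4 passed the test of a difference between the genotypes' regional effects (adjusted p = 0.999 for each, unadjusted p = 0.00323 for H2-Eb1 and 0.0076 to 0.0121 for the other 3).

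H2-Ab1, H2-Aa and Cd74 did not pass with DESeq2 (adjusted p = 0.0904, 0.252 and 0.265) or with limma-trend (0.0719, 0.0654 and 0.144). H2-Eb1 passed with both (0.049 and 0.0199). Since it entered through NesCre cerebellum alone, in which it was high, this adds no support. Leaving out NesCre cerebellum replicate 2 gave adjusted p = 0.0721 for H2-Eb1, 0.163 for H2-Ab1, 0.148 for H2-Aa and 0.429 for Cd74. Leaving out NesCre forebrain replicate 2 gave 0.0529 for H2-Eb1, 0.0981 for H2-Ab1 and H2-Aa, and 0.14 for Cd74. The calls of H2-Ab1, H2-Aa and Cd74 were also lost without NesCre forebrain replicate 1 (adjusted p = 0.0502, 0.0965 and 0.175) or replicate 3 (0.0942, 0.103 and 0.0554), and that of Cd74 without control forebrain replicate 2 (0.0675).

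Transcription of class II genes is known to depend on a conserved promoter module with an X box and a Y box, bound by the RFX and NF-Y complexes and by the coactivator CIITA. Ciita is not among the 8400 genes. The 250 bases before the start of H2-Eb1 and H2-Aa are shown because these genes had the largest differences and moved together. Sequences are from RefSeq, build GRCm38.p6, written 5′ to 3′ on the gene's strand, with the X box core searched for (CTNGCAAC) and the Y box (CTGATTGG) in capitals.
H2-Eb1 (chr17:34305617-34305866, plus strand): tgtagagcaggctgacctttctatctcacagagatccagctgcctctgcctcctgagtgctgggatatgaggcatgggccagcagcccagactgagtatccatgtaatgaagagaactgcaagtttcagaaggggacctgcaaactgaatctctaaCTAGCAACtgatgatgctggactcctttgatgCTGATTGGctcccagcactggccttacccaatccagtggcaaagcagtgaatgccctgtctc
H2-Aa (chr17:34287824-34288073, minus strand): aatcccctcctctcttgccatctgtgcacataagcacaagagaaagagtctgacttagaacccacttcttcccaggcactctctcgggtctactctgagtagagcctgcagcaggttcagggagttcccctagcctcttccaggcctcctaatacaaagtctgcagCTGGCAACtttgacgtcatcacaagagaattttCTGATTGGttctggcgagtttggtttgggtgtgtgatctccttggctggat

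The X box core began 94 bases before the start of H2-Eb1 and 84 bases before that of H2-Aa, and the Y box 62 and 51 bases before. On either strand, 2.84% of the 32851 promoter windows of the same length held the X box core, 3.83% held the Y box and 0.155% held both. A match of letters is a description of the sequence and not a measurement of binding.

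Of the 27 genes of the antigen presentation list, 23 were measured. Of them 4 were called higher (0.19% of all genes were) and none lower (0.0238% were). The median log2 difference was 0.35, beside -0.01 over all genes. Of the 4, Cd74 was the 1 that exceeded the tables' value in both regions, and it stayed called among the 8092 genes (adjusted p = 0.0442). No other member passed. The class I genes H2-K1 (269, 323 and 208 CPM in NesCre cerebellum against 119, 231 and 172 CPM in NesCre forebrain, adjusted p = 0.302) and H2-D1 (83.7, 88.2 and 109 against 56.7, 81.6 and 48.8 CPM, adjusted p = 0.524) did not pass. The class I light chain B2m had 2155 to 2232 CPM in NesCre cerebellum and 2089 to 3071 CPM in NesCre forebrain (adjusted p = 0.725). H2-DMa, part of the chaperone that loads class II, had 101 to 165 CPM in NesCre cerebellum and 88.0 to 149.9 CPM in NesCre forebrain (adjusted p = 0.878), with overlapping groups.

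Genes known from border-associated macrophages formed the second group. F13a1, the A subunit of coagulation factor XIII (chr13:36867178-37050244), had 381, 627 and 473 CPM in NesCre cerebellum and 203, 116 and 145 CPM in NesCre forebrain. It was called (log2 difference 1.70 ± 0.29 SE, adjusted p = 0.00637). Pf4, a chemokine also made by platelets (chr5:90772435-90773383), had 174, 295 and 218 CPM in NesCre cerebellum and 104, 105 and 71.9 CPM in NesCre forebrain (log2 difference 1.30 ± 0.25 SE, adjusted p = 0.0199). Cd163, the scavenger receptor for haemoglobin bound to haptoglobin (chr6:124304656-124330527), had 119, 272 and 204 CPM in NesCre cerebellum and 33.3, 53.4 and 78.0 CPM in NesCre forebrain. Its log2 difference was 1.81 ± 0.39 (SE, adjusted p = 0.0427). All 3 were highest in NesCre cerebellum replicate 2.

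Across the whole marker list, 15 of 18 border macrophage genes were measured in both tables. Of them 3 were called higher (0.19% of all genes were) and none lower (0.0238% were). The median log2 difference was 0.80, beside -0.01 over all genes. In direction, 14 of the 15 were positive (49.2% of all genes were), and 10 had an unadjusted p under 0.05 on the higher side, where 4.63% of all genes lie. Ccr1, a chemokine receptor, was the 1 negative member, at 152, 157 and 142 CPM in NesCre cerebellum and 227, 260.4 and 178 CPM in NesCre forebrain (log2 difference -0.56 ± 0.23 SE, adjusted p = 0.445). Mrc1, the mannose receptor, was the most abundant of the markers that border macrophages are sorted by, and its groups overlapped at 1031 to 1780.1 CPM in NesCre cerebellum and 713 to 1334 CPM in NesCre forebrain (adjusted p = 0.811). Lyve1, a hyaluronan receptor, had 233, 404 and 229.6 CPM in NesCre cerebellum and 219, 54.4 and 102 CPM in NesCre forebrain (log2 difference 1.30 ± 0.36 SE, adjusted p = 0.176). Summed over the 15 markers, the level was 4051, 6232 and 4309 CPM in NesCre cerebellum and 3756, 3479 and 2518 CPM in NesCre forebrain. In controls it was 3084 to 4776 CPM in cerebellum and 3020 to 3785 CPM in forebrain. None of the 15 was at 0 in all libraries of a group, and the other 3 markers (Siglec1, Clec12a, Clec4n) stand in the cerebellum table alone. The part of these cells in the differences of the MHC class II and macrophage genes was not tested, and in bulk libraries fewer cells of a type cannot be told apart from less RNA per cell.

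**Figure D2:**
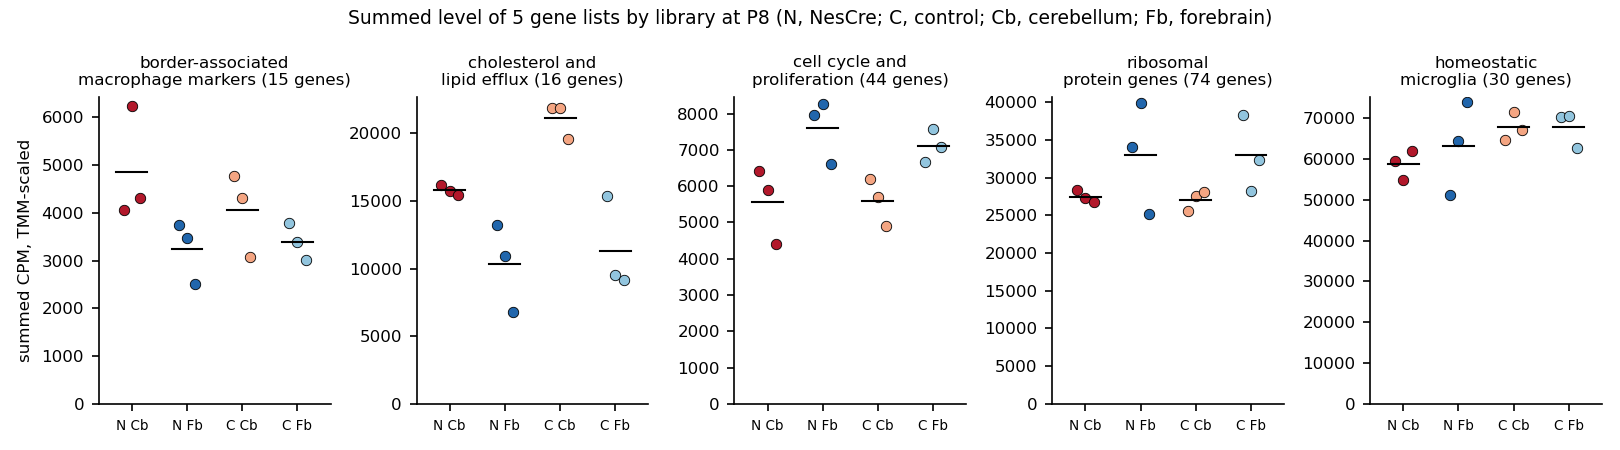
Summed CPM (y axes, linear, from 0) of 5 gene lists in each P8 library, with a bar at the group mean. The border macrophage markers lie at 4051 to 6232 CPM in NesCre cerebellum and 2518 to 3756 CPM in NesCre forebrain, whereas the homeostatic genes overlap between the regions.

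Monocyte markers had mostly positive log2 differences. Only 5 of 20 were measured in both tables, and none was called. Of those 5, 4 had an unadjusted p under 0.05 on the higher side, where 4.63% of all genes lie. Ccr2, the chemokine receptor that marks monocytes, had 43.8, 89.9 and 56.4 CPM in NesCre cerebellum and 5.87, 13.6 and 17.1 CPM in NesCre forebrain (log2 difference 2.30 ± 0.53 SE, adjusted p = 0.0744). The 5 summed to 225 to 344 CPM in NesCre cerebellum and 95.2 to 153 CPM in NesCre forebrain, against 124 to 286 CPM in control cerebellum and 106 to 197 CPM in control forebrain. The part of monocytes in the called differences was not tested.

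Further macrophage genes were called that the border macrophage list does not hold. Lyz2, lysozyme (chr10:117277331-117282321), had 356, 431 and 483 CPM in NesCre cerebellum and 221, 164 and 98.7 CPM in NesCre forebrain (log2 difference 1.41 ± 0.24 SE, adjusted p = 0.00637). Cfp, which encodes properdin, the positive regulator of the alternative complement pathway (chrX:20925454-20931555), had 65.3, 119 and 115 CPM in NesCre cerebellum and 21.5, 33.0 and 9.75 CPM in NesCre forebrain. Its log2 difference was 2.16 ± 0.35 (SE, adjusted p = 0.00637), the smallest unadjusted p of all genes (1.57e-06). Cfp was the 1 called gene among 12 measured complement genes (0.19% of all genes were called higher), and their median log2 difference was 0.09. Mgl2, a galactose-binding C-type lectin of tissue macrophages and dendritic cells (chr11:70130329-70137550), had 23.1, 37.0 and 35.0 CPM in NesCre cerebellum and 7.82, 9.72 and 0 CPM in NesCre forebrain (log2 difference 2.39 ± 0.51 SE, adjusted p = 0.041). Over 3 libraries each, Mgl2 had 91 reads in NesCre cerebellum and 14 in NesCre forebrain.

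Leaving out libraries bore on these genes as follows. F13a1 lost its call without NesCre cerebellum replicate 2 (adjusted p = 0.0835) or forebrain replicate 2 (0.0523), and with DESeq2 (0.0523). Pf4 lost it without NesCre cerebellum replicate 2 (0.212), forebrain replicate 2 (0.0523) or forebrain replicate 3 (0.0942). Cd163 lost it without any 1 of NesCre cerebellum replicates 2 and 3 (0.381 and 0.11), NesCre forebrain replicates 1, 2 and 3 (0.175, 0.14 and 0.0554) and control forebrain replicate 2 (0.0675), and with DESeq2 (0.208) and limma-trend (0.087). Mgl2 lost it in 8 of the 12 refits with 1 library left out, with adjusted p up to 0.256.

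Cd36 and Pla2g7, 2 called genes of lipid handling, were grouped so after the calls were seen, and no list holds both. Cd36, a scavenger receptor for fatty acids and oxidised lipoproteins (chr5:17781690-17888801), had 140.2, 164 and 187 CPM in NesCre cerebellum and 88.0, 46.6 and 45.1 CPM in NesCre forebrain (log2 difference 1.49 ± 0.30 SE, adjusted p = 0.0211). Pla2g7, the secreted hydrolase of platelet-activating factor (chr17:43568098-43612201), had 50.2, 59.6 and 79.8 CPM in NesCre cerebellum and 17.6, 22.3 and 18.3 CPM in NesCre forebrain. Its log2 difference was 1.65 ± 0.35 (SE, adjusted p = 0.0385). Cd36 lost its call in 4 and Pla2g7 in 5 of the 12 refits with 1 library left out, with adjusted p up to 0.148 for Cd36 and 0.163 for Pla2g7, both without NesCre cerebellum replicate 2.

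All 16 measured genes of the list of cholesterol and lipid efflux had positive log2 differences (49.2% of all genes did), with a median of 0.28. Cd36 was the 1 called (0.19% of all genes were called higher), and 6 had an unadjusted p under 0.05. In controls 15 of the 16 were positive, the median was 0.56 and 12 had such a p, so this direction is not particular to NesCre mice. Apoe, the main lipid carrier of the brain, had 11694, 11416 and 11552 CPM in NesCre cerebellum and 9614, 7387 and 3628 CPM in NesCre forebrain (log2 difference 0.75 ± 0.23 SE, adjusted p = 0.228). Of 42 measured lysosomal genes 36 were positive, and the median was 0.16, beside 35 positive and a median of 0.19 in controls. Lamp1, a main protein of the lysosomal membrane, had 1068, 1644 and 1499 CPM in NesCre cerebellum and 739, 818 and 528 CPM in NesCre forebrain (log2 difference 1.01 ± 0.23 SE, adjusted p = 0.0744). Of 29 measured engulfment genes, Cd36 was the 1 called (0.19% of all genes were called higher), and the median was 0.15.

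The last 3 called genes belong to no common list of macrophage genes. Mbp, myelin basic protein (chr18:82475146-82585637), had 55.8, 123 and 226 CPM in NesCre cerebellum and 25.4, 30.1 and 36.6 CPM in NesCre forebrain (log2 difference 2.05 ± 0.36 SE, adjusted p = 0.00752). It was the 1 gene called in controls too, with 107, 140.1 and 83.2 CPM in control cerebellum and 38.8, 25.5 and 28.7 CPM in control forebrain (log2 difference 1.83 ± 0.35 SE, adjusted p = 0.0378). The other 2 measured oligodendrocyte markers had log2 differences of 0.23 ± 0.22 and 0.18 ± 0.42 (SE), with 97.2, 159 and 152 CPM of Cnp in NesCre cerebellum and 97.8, 109 and 137 CPM in NesCre forebrain (adjusted p = 0.827), and 12, 18.5 and 15.6 against 11.7, 13.6 and 14.6 CPM of Mag (0.953). The other 17 of the 20 oligodendrocyte genes are in neither P8 table. Il18rap, the accessory subunit of the IL-18 receptor (chr1:40515362-40551705), had 64.5, 58.0 and 46.7 CPM in NesCre cerebellum and 7.82, 17.5 and 11 CPM in NesCre forebrain. Its log2 difference was 2.15 ± 0.43 (SE, adjusted p = 0.0211), and it had 8.17 to 31.8 CPM in control cerebellum and 7.85 to 16.0 CPM in control forebrain. Gas7, named here after its values were seen (chr11:67455437-67688990), had 347, 339 and 290.0 CPM in NesCre cerebellum and 231, 114 and 109.7 CPM in NesCre forebrain (log2 difference 1.15 ± 0.23 SE, adjusted p = 0.0211). The call of Mbp was lost in 3 of the 12 refits with 1 library left out (adjusted p = 0.0721 without NesCre cerebellum replicate 2, 0.0558 without cerebellum replicate 3, 0.0523 without forebrain replicate 2), that of Gas7 in 4 and that of Il18rap in 5 (up to 0.148 for both).

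In the other direction stood genes of dividing cells. Ccnb1 encodes cyclin B1, the partner of CDK1 at entry into mitosis (chr13:100778650-100786570). It had 75.7, 86.5 and 75.9 CPM in NesCre cerebellum and 196, 138 and 151 CPM in NesCre forebrain (log2 difference -1.0 ± 0.21 SE, adjusted p = 0.0303). Kpna2, an importin alpha that carries proteins into the nucleus (chr11:106988629-106999541), had 180.1, 184 and 156 CPM in NesCre cerebellum and 354, 292 and 306 CPM in NesCre forebrain (log2 difference -0.86 ± 0.19 SE, adjusted p = 0.0462). In controls Ccnb1 had 93.0 to 156 CPM in cerebellum and 140.3 to 148 CPM in forebrain, and Kpna2 had 175 to 315 CPM in cerebellum and 213 to 291 CPM in forebrain. Neither was called in controls (adjusted p = 0.913 and 0.951). The call of Ccnb1 was lost in 7 of the 12 refits with 1 library left out (adjusted p up to 0.148), and that of Kpna2 in 9 (up to 0.203, without NesCre cerebellum replicate 2). Kpna2 also missed the threshold with RLE size factors (0.0504) and with limma-trend (0.0538).

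The promoters of these 2 genes are shown because they were the only genes called lower. Genes of mitosis are known to carry CCAAT boxes bound by NF-Y close to their start, and the letters CCAAT, searched on both strands, are in capitals.
Ccnb1 (chr13:100786487-100786736, minus strand): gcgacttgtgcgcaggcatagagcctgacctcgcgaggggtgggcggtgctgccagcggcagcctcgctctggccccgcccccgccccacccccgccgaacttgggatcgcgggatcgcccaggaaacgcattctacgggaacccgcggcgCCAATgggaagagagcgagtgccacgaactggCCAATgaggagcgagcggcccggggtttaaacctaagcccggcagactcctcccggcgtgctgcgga
Kpna2 (chr11:106999526-106999775, minus strand): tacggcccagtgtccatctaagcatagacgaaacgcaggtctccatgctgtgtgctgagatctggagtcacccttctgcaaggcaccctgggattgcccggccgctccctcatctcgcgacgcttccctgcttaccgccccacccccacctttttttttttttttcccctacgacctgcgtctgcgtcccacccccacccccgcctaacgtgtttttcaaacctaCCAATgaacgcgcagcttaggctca

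Counted from the RefSeq start, which lies inside the GENCODE gene for both, Ccnb1 held CCAAT 99 and 67 bases before it and Kpna2 25 bases before it. The letters are common, in 33.8% of all promoter windows, and the Y box above holds them on its other strand.

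The 44 genes of the cell cycle list were all measured, and Ccnb1 was the 1 called (0.0238% of all genes were called lower). In direction, 41 of the 44 were negative, 20 had an unadjusted p under 0.05 on the lower side (4.37% of all genes do), and the median log2 difference was -0.45. For 20 of the 44 the 3 NesCre cerebellum libraries lay below the 3 NesCre forebrain libraries, beside 6.19% of all genes. Mki67, the proliferation marker Ki-67, had 191, 244 and 181 CPM in NesCre cerebellum and 315, 316 and 275 CPM in NesCre forebrain (log2 difference -0.54 ± 0.18 SE, adjusted p = 0.28). Top2a, the topoisomerase of dividing cells, had 309.9, 307 and 214 CPM in NesCre cerebellum and 385, 451 and 399 CPM in NesCre forebrain (log2 difference -0.56 ± 0.18 SE, adjusted p = 0.275). Summed over the list, the level was 4418 to 6412 CPM in NesCre cerebellum and 6607 to 8255 CPM in NesCre forebrain. It was 4913 to 6200 CPM in control cerebellum and 6667 to 7571 CPM in control forebrain, where the median log2 difference was -0.36 and 43 of 44 genes were negative.

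Ribosomal protein genes had negative log2 differences in 72 of 74 cases, with a median of -0.35, and none was called. Of the 74, 24 had an unadjusted p under 0.05 on the lower side, where 4.37% of all genes lie. Their sum was 26707 to 28420 CPM in NesCre cerebellum and 25206 to 39893 CPM in NesCre forebrain, so the groups overlapped. In controls the median was -0.32 and all 74 were negative. Genes of oxidative phosphorylation had a median of -0.20, 34 of 37 negative, and none was called (6 with an unadjusted p under 0.05, all on that lower side).

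**Figure D3:**
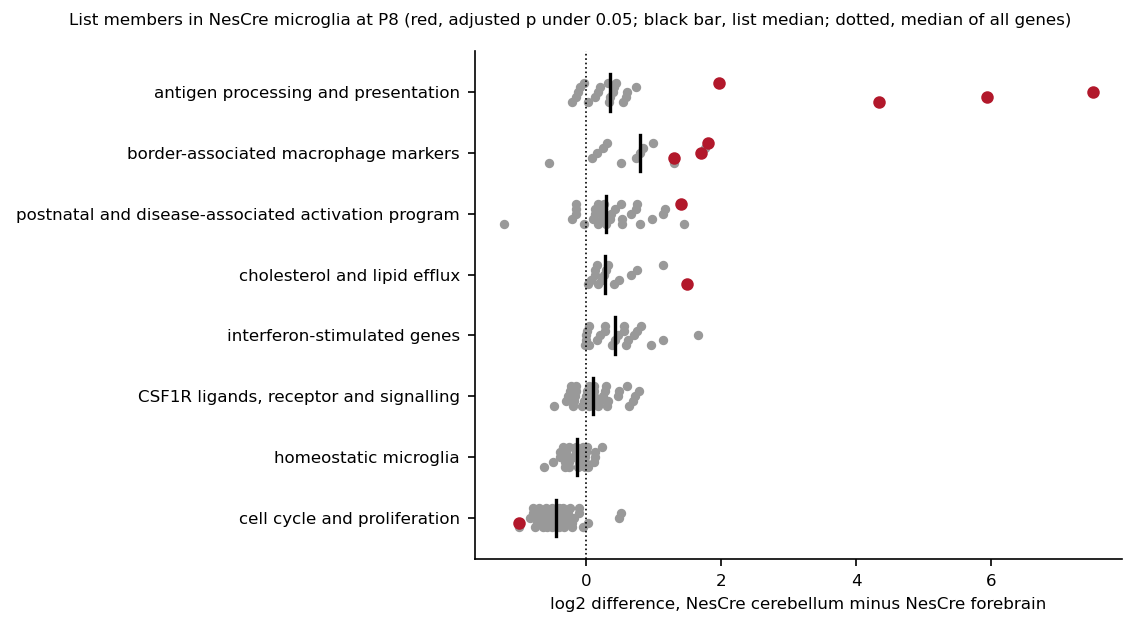
Log2 difference of NesCre cerebellum minus NesCre forebrain (x axis) for the measured members of 8 gene lists, 1 point a gene, red where the adjusted p is under 0.05. The class II genes H2-Eb1, H2-Aa and H2-Ab1 stand furthest right, up to 7.50, and most cell cycle genes lie left of the dotted median of all genes.

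No gene by which microglia are recognised passed the test. None of 30 measured homeostatic genes was called, but the list leaned lower in the cerebellum. An unadjusted p under 0.05 was found for 6 of the 30, all on the lower side, where 4.37% of all genes lie. In direction 24 were negative (4268 of all 8400 genes were), and the median was -0.14. P2ry12, the purinergic receptor of resting microglia, had 3616, 3281 and 4229 CPM in NesCre cerebellum and 3722, 4585 and 7304 CPM in NesCre forebrain (log2 difference -0.49 ± 0.18 SE, adjusted p = 0.363). The list summed to 54881 to 61873 CPM in NesCre cerebellum and 51251 to 73903 CPM in NesCre forebrain, with wide overlap. None of 34 measured genes of CSF1R signalling was called (1 with an unadjusted p under 0.05), and their median was 0.10. Spi1, the transcription factor PU.1, was that 1 gene, at 139, 334 and 278 CPM in NesCre cerebellum and 108, 205 and 112 CPM in NesCre forebrain (log2 difference 0.79 ± 0.26 SE, adjusted p = 0.285).

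Interferon-stimulated genes were mostly positive, 20 of 23 with a median of 0.43, and none was called. Of the 23, 7 had an unadjusted p under 0.05 on the higher side, where 4.63% of all genes lie. Ifitm3, a membrane protein that restricts virus entry, had 27.1, 26.0 and 40.9 CPM in NesCre cerebellum and 13.7, 6.80 and 9.75 CPM in NesCre forebrain, without overlap (log2 difference 1.65 ± 0.44 SE, adjusted p = 0.159). Among 30 measured chemokines, cytokines and their receptors Pf4 was the 1 called (0.19% of all genes were called higher), and the median was 0.22. Ccl2, the ligand of CCR2, had 111, 86.5 and 68.1 CPM in NesCre cerebellum and 29.3, 56.3 and 50 CPM in NesCre forebrain (log2 difference 0.95 ± 0.26 SE, adjusted p = 0.176).

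In control mice 6 of the 8400 genes were called (0.0714%), all higher in the cerebellum: Spp1, Gpm6b, Mbp, Ctsd, Abca1 and Pld3. Mbp was the 1 gene shared with the NesCre calls, or 5.56% of the NesCre list and 16.7% of the control list. All 18 genes called in NesCre mice had a log2 difference of the same sign in controls, where 56.0% of all genes share the sign between the genotypes. Of the 18, 4 (Cfp, Lyz2, Mgl2 and Mbp) separated the control regions without overlap, as 6.77% of all genes did in the higher direction. Mgl2 is 1 of the 5 called genes that entered through cerebellum groups alone, and the values of these 5 are a description here too. No gene passed the test of the difference between the genotypes' regional effects (0 of 8400 by edgeR, DESeq2 and limma-trend). At an unadjusted p under 0.05 there were 400 by edgeR (4.76%), 315 by DESeq2 and 386 by limma-trend.

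The gene with the smallest p in that test was Spp1, osteopontin, a secreted phosphoprotein of activated microglia (chr5:104435118-104441050). Spp1 had 319.5, 423 and 79.8 CPM in NesCre cerebellum and 338, 436 and 23.2 CPM in NesCre forebrain, with full overlap (log2 difference 0.09 ± 0.47 SE, adjusted p = 0.978). Control cerebellum had 2155, 1151 and 1719.5 CPM and control forebrain 159, 114 and 105 CPM (log2 difference 3.74 ± 0.51 SE, adjusted p = 0.000494). The NesCre regional difference minus that of controls was -3.64 ± 0.68 (SE, adjusted p = 0.0985, unadjusted p = 1.17e-05). Over refits without 1 library this adjusted p ran from 6.6e-06, without NesCre forebrain replicate 3, in which Spp1 was lowest, to 0.653, without control forebrain replicate 2. With other tools it was higher, 0.996 with limma-trend and 1 with DESeq2 (unadjusted p = 0.00142 and 0.00276).

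Gpnmb, a glycoprotein of phagocytes that is often induced together with Spp1, had 41.4, 38.6 and 0 CPM in NesCre cerebellum and 82.2, 127 and 1.22 CPM in NesCre forebrain. It had 222, 23.4 and 132 CPM in control cerebellum and 4.57, 17.7 and 36.9 CPM in control forebrain (difference of the log2 differences -3.88 ± 1.04 SE, adjusted p = 0.957). Jam2, an adhesion molecule, had 27.1, 18.5 and 33.1 CPM in NesCre cerebellum and 31.3, 54.4 and 48.8 CPM in NesCre forebrain. In control cerebellum it had 87.2, 89.9 and 89.3 CPM, against 44.5, 67.7 and 43.0 CPM in control forebrain (difference -1.63 ± 0.40 SE, adjusted p = 0.957). Itsn2, an endocytic scaffold, separated the regions in opposite directions, with 92.4, 85.7 and 91.5 CPM in NesCre cerebellum and 48.9, 57.3 and 59.7 CPM in NesCre forebrain. Its controls had 36.3, 44.4 and 37.9 CPM in cerebellum and 51.4, 63.8 and 63.5 CPM in forebrain (difference 1.28 ± 0.34 SE, adjusted p = 0.957). Decr1 and Rnf187 completed the 3 smallest p-values in the positive direction (differences 1.71 ± 0.46 and 2.20 ± 0.59 SE, adjusted p = 0.957 for both).

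**Figure D4:**
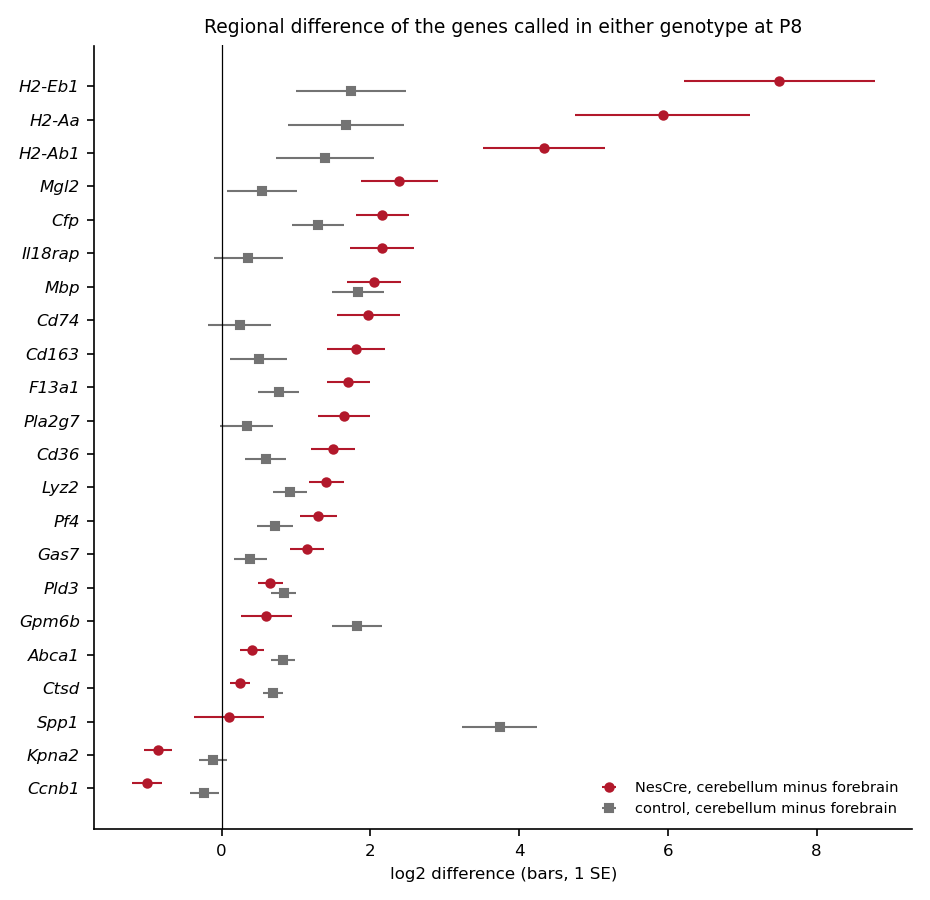
Log2 difference of cerebellum minus forebrain (x axis, bars 1 SE) of 22 genes called in NesCre mice, controls or both at P8, with NesCre as red circles above controls as grey squares. Spp1 lies at 0.09 in NesCre mice and at 3.74 in controls, and the 17 genes drawn that were called in NesCre mice lie on the same side of 0 in both genotypes.

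The activation program of postnatal and disease-associated microglia was measured in 31 of 34 genes. Lyz2 was the 1 called in NesCre mice (0.19% of all genes were called higher), 25 of 31 genes were positive, and the median was 0.29. In controls Spp1 and Ctsd were called (0.0714% of all genes were called higher). There 27 of 31 were positive (49.5% of all genes were), and the median was 0.66. Igf1, a growth factor of this program, had 225, 294 and 249 CPM in NesCre cerebellum and 158, 183 and 50 CPM in NesCre forebrain (log2 difference 0.98 ± 0.27 SE, adjusted p = 0.176). Its control cerebellum had 492, 488 and 317 CPM and its control forebrain 204, 228 and 154 CPM (log2 difference 1.15 ± 0.26 SE, adjusted p = 0.0978). Itgax, the integrin CD11c, had 12.7, 12.6 and 25.3 CPM in NesCre cerebellum and 25.4, 17.5 and 7.31 CPM in NesCre forebrain, and 35.4, 42.0 and 66.1 CPM in control cerebellum against 25.1, 19.6 and 14.3 CPM in control forebrain. The difference of its regional effects between genotypes was -1.30 ± 0.61 (SE, adjusted p = 0.999). Ctsd, a lysosomal protease, had 7907 to 10204 CPM in NesCre cerebellum and 6740.4 to 9211 CPM in NesCre forebrain (log2 difference 0.24 ± 0.13 SE, adjusted p = 0.609). In control cerebellum Ctsd had 13479 to 14434 CPM, and in control forebrain 8287 to 9140.3 CPM (log2 difference 0.69 ± 0.13 SE, adjusted p = 0.0378). For Ctsd the difference of the effects was -0.44 ± 0.19 (SE, adjusted p = 0.999).

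**Figure D5:**
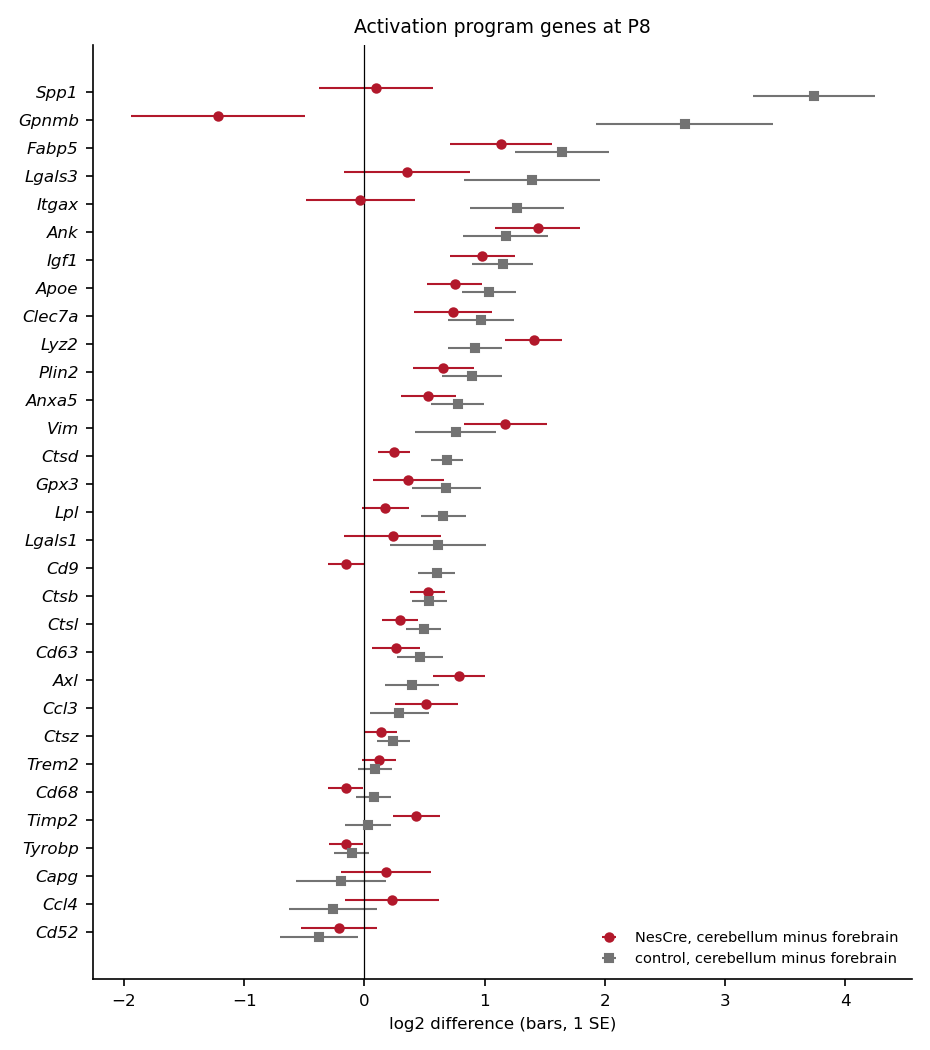
Log2 difference of cerebellum minus forebrain (x axis, bars 1 SE) of the 31 measured activation program genes at P8, ordered by the control value, with NesCre as red circles above controls as grey squares. Spp1 and Gpnmb stand furthest apart between the genotypes, whereas Igf1 (0.98 and 1.15) lies close together.

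In NesCre mice at 9 weeks, 357 of 9152 genes differed between the regions (3.9%), 166 higher (1.81%) and 191 lower (2.09%). Of the 18 genes called at P8, 6 are in both tables of that age, and values of 5 are given here. H2-Ab1 had 286, 283 and 133 CPM in the 9-week NesCre cerebellum and 13.9 to 28.3 CPM in the 4 forebrain libraries (log2 difference 3.43 ± 0.25 SE, adjusted p = 8.21e-09). Cd74 had 286, 349 and 142 CPM in the 9-week cerebellum and 7.38 to 30.3 CPM in the forebrain (log2 difference 3.65 ± 0.30 SE, adjusted p = 4.02e-08). Lyz2 had 318, 218 and 189 CPM in the 9-week cerebellum and 84.8 to 135 CPM in the forebrain (log2 difference 1.16 ± 0.17 SE, adjusted p = 8.4e-05). These 3 were called in the same direction as at P8. Mbp had log2 difference -0.03 ± 0.23 (SE, adjusted p = 0.98), and Kpna2 0.05 ± 0.19 (SE, adjusted p = 0.939).

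Genes listed in a single P8 table were left out of the tests, and their deposited values are given as a description. The cerebellum table alone holds 124 genes. Highest in its NesCre libraries were Ltf (97.3, 101 and 149), Ngp (122, 80.6 and 82.4), S100a9 (63.1, 24.9 and 117), S100a8 (43.4, 14.5 and 93.1), Lcn2 (59.9, 22.1 and 65.6) and Anxa1 (39.5, 26.2 and 58.0), of which the first 5 are known from neutrophils and their precursors. In control cerebellum replicate 3 the same genes were higher, at 291 for Ltf and 415 for Ngp. Of the 18 neutrophil markers, 8 are in the cerebellum table alone, 9 are in neither, and Cxcr2 is in both, at 49.4 to 77.8 CPM in NesCre cerebellum and 50.9 to 80.5 CPM in NesCre forebrain (adjusted p = 0.98). Siglec1, sialoadhesin, one of the border macrophage markers of that table, had 8.64, 24.9 and 18.4 in NesCre cerebellum and 10.1, 17.4 and 12.9 in control cerebellum. The forebrain table alone holds 1196 genes, led in its NesCre libraries by Col4a1 (110.2, 8.25 and 24.4), Ptgds (102, 9.06 and 2.04), Lmna (62.4, 22.9 and 26.3), Stag3 (32.0, 13.1 and 66.2), Arg1 (44.8, 27.8 and 30.2) and Ptn (79.9, 4.17 and 3.99). Col4a1, a basement membrane collagen, Ptgds, a prostaglandin synthase of meninges and glia, and Ptn, a secreted growth factor of neural cells, were highest in replicate 1 among the NesCre forebrain libraries, and Ptgds reached 769 in control forebrain replicate 1.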

How the data were processed

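RNA of sorted microglia was sequenced with an ultra-low-input protocol. STAR 2.5.3, featureCounts and mm10 are named per the submitters' processing notes. Annotation, strand setting and normalization are not given in the sources used here, so overlapping genes on opposite strands cannot be told apart. The authors deposited a normalised signal for each gene and library. Its values (100% of them in the 25 columns recovered, within 0.01 reads) equal whole reads divided by 1 factor per library, plus 0.1, and these reads were used as counts. There are 9612 genes in the P8 forebrain table and 8539 in the cerebellum one. All cerebellum genes, but 8499 forebrain genes, exceed 10 in all libraries of a group, so genes low in both cerebellum groups were not tested, while genes low in the forebrain could be. Names that a spreadsheet had turned into dates (15 and 16) were left out. The genes in both tables hold at least 98.2% of each library's reads.

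The 12 P8 libraries entered 1 fit with 4 group means in edgeR 4.0.16 (R 4.3.3): TMM factors, filterByExpr (which removed no gene), quasi-likelihood tests, two-sided, Benjamini-Hochberg over all genes, threshold 0.05, SE as the log2 difference over the root of F. The 9-week NesCre libraries had a fit of their own. DESeq2 1.42.0 and limma 3.58.1 were alternatives. Depth limits precision most in the 2 shallowest libraries (507917 reads in NesCre cerebellum replicate 3, 503424 in NesCre forebrain replicate 1), and intervals cover counting error only. Gene positions are from GENCODE vM21. Promoters (RefSeq) were found for 13 of the 18 genes.

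The rule for named genes took, up to 12 in each direction, called genes without overlap whose log2 CPM averaged 3 or more, called members of each of 30 lists, or else the highest expressed, the smallest p-values of the difference between genotypes, and the highest genes of each single table. Other list members were named after their values were seen. Members and lists were chosen with earlier results of these data known. One P8 forebrain control carries no replicate number and was never paired. Results of some genes, 1 of the 18 called genes among them, are not reported here.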

Additional observations from a re-analysis of the deposited data

Results flagged for a closer look

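Arg1, arginase of alternatively activated macrophages, stands in the P8 forebrain table alone and so entered no comparison of regions. It averaged 34.3 in deposited normalised values in the 3 NesCre forebrain libraries (44.8, 27.8 and 30.2), above the 16.2, 21.0 and 15.2 of the 3 control forebrain libraries. The difference was not tested here.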

How the results depend on the processing

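The 18 calls of the NesCre comparison at P8 became 7 under voom with quality weights and 10 to 17 shared calls under RLE factors, DESeq2, limma-trend, quantile normalization, the deposited values or the 6 NesCre libraries alone; leaving out 1 library gave 0 to 25. Beside the 0 calls without NesCre cerebellum replicate 2, 570 genes had an unadjusted p under 0.05. Over all these settings no called gene changed direction, which the lack of overlap between their regions made all but certain. The 2 other settings of the filter on low counts kept the same 8400 genes, so they repeated the main fit and tested nothing. The 8092 genes over 10 in both regions, chosen after seeing the data, gave 12 calls. With the replicate number as a block, the 6 NesCre libraries gave 33 calls, including the 18. The block fit between genotypes left out replicate 3 of both control regions. It gave 4 calls, with Spp1 and Gpnmb among them (adjusted p = 3.73e-09 and 0.00183). The main fit, which gave 0, thus differs from it in libraries as well as in the block. At P8 the deviations of same-numbered libraries from their group means correlated at -0.02, 0.05 and 0.17. NesCre cerebellum replicates 2 and 3 correlated best with their own number, and replicate 1 with forebrain replicate 2 (0.14). These values do not settle whether the numbers pair the libraries, and the labels do not say, so the main fit left them unpaired. At 9 weeks each cerebellum library correlated best with its own number (0.089, 0.079 and 0.134). The block there left out NesCre forebrain replicate 2, which has no cerebellum library of its number. It gave 495 calls, beside 357 in the main fit, which held that library. Leaving out 1 library gave 0 or 1 call between genotypes. Control calls were 5 with limma-trend. List medians stayed within the spread between libraries in 185 fits and moved further in 7; 9 changed sign, in the lists of cholesterol synthesis, glycolysis, macrophage transcription factors and TGF-beta signalling, whose medians lay near 0. The cause of these changes was not tested. At these depths, genes such as Mgl2 rest on few reads in the forebrain, and smaller differences may not be detectable.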
